A study of Mus musculus with 6 samples.

Results

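The 9 genes described here are 7 enzymes of heme synthesis (Alas1, Alad, Uros, Urod, Cpox, Ppox and Fech, in the order of the pathway), the transferrin receptor Tfrc and the biliverdin reductase Blvrb, out of 45706 genes in the count table. They were chosen by name, for their place in heme and iron metabolism, with earlier results of these data known. RNA-seq was run on the LSK fraction (Lin- Sca-1+ c-Kit+) of the bone marrow, the part that holds hematopoietic stem cells and multipotent progenitors, to ask how loss of the histone H3 lysine methyltransferase Setd1b alters their transcriptome. Each library came from 1 male C57BL/6 mouse. The Ctrl group (labelled HET, Setd1b FD/+; RC/+) had 3 mice aged 16 weeks, named AI03, AI54 and AI56. The cKO group (labelled HOM, Setd1b FD/FD; RC/+) had 2 mice aged 16 weeks, AI02 and AI55, and 1 aged 17 weeks, AH74. All 6 mice carried the tamoxifen-inducible Rosa26-Cre-ERT2 (RC), which is active in nearly every tissue and so not in blood cells alone. All 6 were gavaged with 4.5 mg tamoxifen on 4 days and, after a pause of 3 days, on 2 more, and were killed 3 days later, by the labels (the study's text gives another number of doses). Thus Ctrl mice, too, were exposed to tamoxifen and Cre and carried 1 conditional allele.

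Total counts were 13003573 to 21277519 per library. Setd1b itself was counted higher, not lower, in the libraries labelled cKO, at 292 ± 21.1 CPM (normalised read counts, scaled to a common library size) against 213 ± 16.2 CPM in Ctrl (SD, n = 3 each; adjusted p = 0.00146, edgeR quasi-likelihood test). The study describes the deleted exon 5 as one that shifts the reading frame. In the transcript models of 17 exons, exon 5 has 113 bases, not a multiple of 3, which are 0.936% of the exon length counted for the gene. In the model of 16 exons it has 1209 bases, 10% of that length and a multiple of 3. The count per gene, read almost wholly from other exons, therefore cannot check the deletion. The directions below are those between the labels. The 4 markers of the LSK gate (Kit, Ly6a, Cd34 and Flt3) summed to 1111 to 1258 CPM in Ctrl and 1064 to 1174 CPM in cKO. None of these 4 passed the adjusted threshold with edgeR or DESeq2, and 1 had an unadjusted p under 0.05 with edgeR. The library numbers form 2 series that both hold both genotypes (AI02, AI55 and AI03 in the first, AH74, AI54 and AI56 in the second), so the differences of the 9 genes were also computed within each series.

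Heme is an iron-containing ring that serves as the oxygen-binding group of hemoglobin and as a cofactor of respiratory enzymes, catalases and cytochromes. Every nucleated cell makes some heme, and erythroid precursors make far more than any other blood cell. The pathway starts in the mitochondrion with 5-aminolevulinate, runs through the cytosol and returns to the mitochondrion, where iron is inserted into protoporphyrin. Its iron enters the cell as transferrin bound to the transferrin receptor, and heme is opened by heme oxygenase to biliverdin, which is reduced to bilirubin.

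All 9 genes passed the filter on low counts. Of these, 4 were lower in cKO at an adjusted p under 0.05, the enzymes Cpox and Alas1, the receptor Tfrc and the reductase Blvrb, while Alad, Uros, Urod, Ppox and Fech did not pass. The fall of Cpox was 47.8%, while the falls of Alas1, Tfrc and Blvrb were between 25.9% and 30.1%. Among all 15184 genes tested, 3.79% were lower and 7.67% changed in either direction by the same rule. In the same 4 genes every cKO library was below every Ctrl library, which held for 13.4% of all genes tested. No gene of the 9 was higher with edgeR or DESeq2, and 0 had a higher fitted level at an unadjusted p under 0.05 with either tool. The fitted log2 fold change was below 0 in 8 of the 9, and its median was -0.20, against 0.00023 over all genes tested. Taken within a library series, the median of the 9 was -0.25 (first series) and -0.31 (second series), and over both it was -0.32 without the Ctrl mouse AI54 and -0.13 without the Ctrl mouse AI56.

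**Figure D1:**
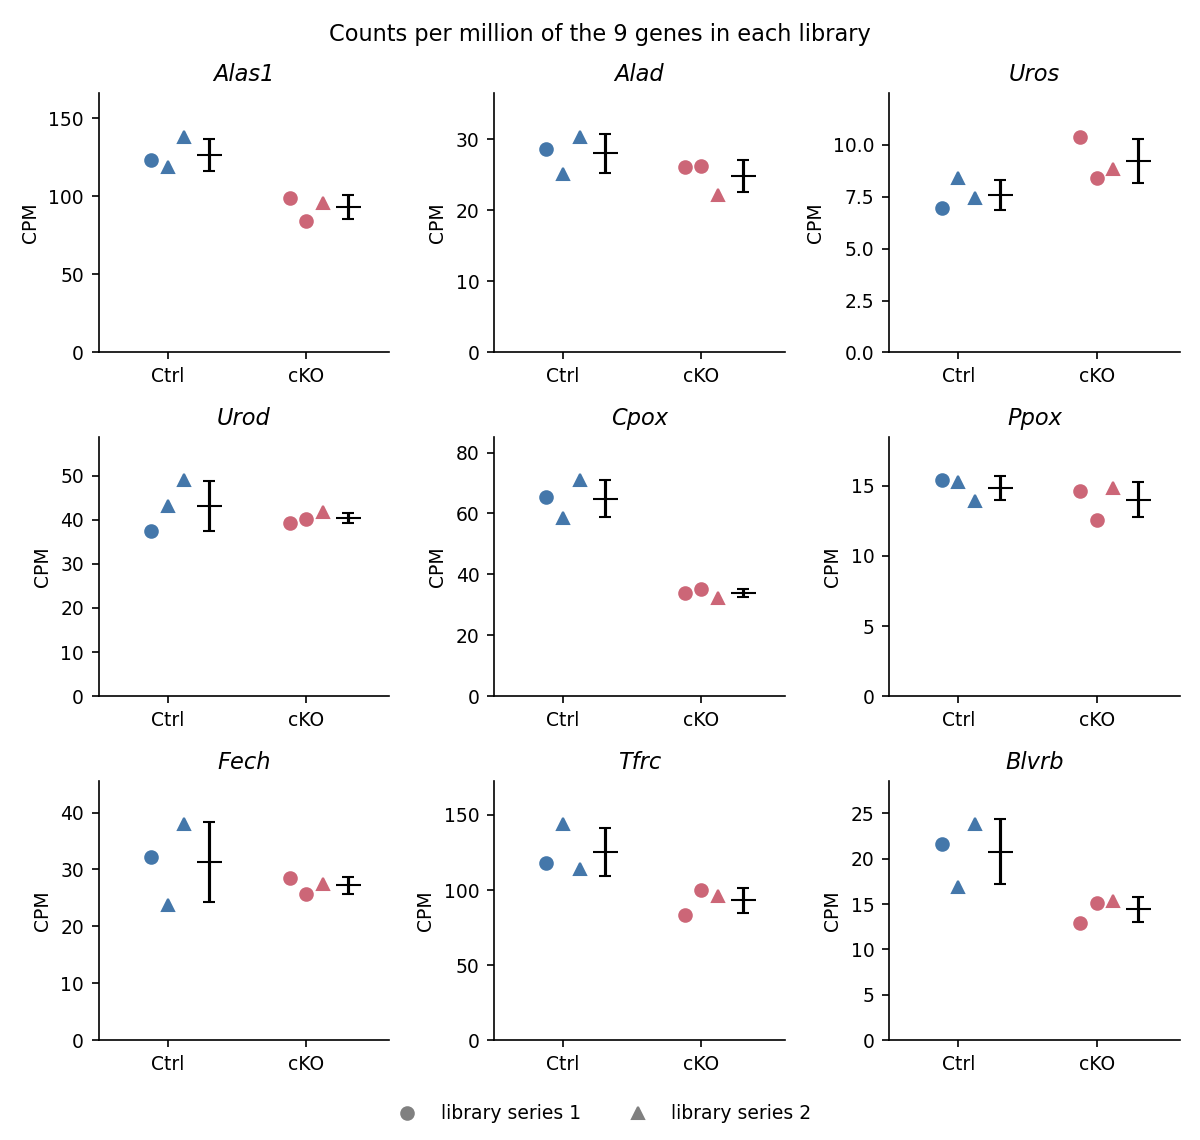
CPM of the 9 genes (vertical axes, linear, from 0) in each of the 3 Ctrl and 3 cKO libraries, 1 panel per gene, with circles for the first and triangles for the second library series, and with black bars for the mean and SD of each group. The points of both groups are apart in Alas1, Cpox, Tfrc and Blvrb and overlap in the other 5 panels.

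Promoter sequences are shown for the 4 genes that were lower. Those of Alad and Urod, 2 that did not pass, are shown for a motif match found in both after the search. RefSeq start sites on GRCm38.p6 were matched for 8 of the 9 genes, with 13 windows of 250 bases before a start, and of these the stretches free of annotated exons are printed 5′ to 3′ on the strand of the gene. Capitals mark a match to 1 of the letter strings searched on both strands, and no match overlapped another (AGATAA or TGATAA for GATA factors, CCACCC for the CACCC box of Krüppel-like factors, TGAGTCA or TGACTCA for AP-1 and NF-E2, CACGTG for the E-box of MYC and USF factors).
Cpox, chr16:58669958-58670207, plus strand: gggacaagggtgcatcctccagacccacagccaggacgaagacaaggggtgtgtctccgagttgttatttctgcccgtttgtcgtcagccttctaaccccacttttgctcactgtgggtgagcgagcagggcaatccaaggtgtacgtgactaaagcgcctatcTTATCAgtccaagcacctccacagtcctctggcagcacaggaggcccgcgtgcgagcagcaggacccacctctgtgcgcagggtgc
Alas1, chr9:106248127-106248204, minus strand: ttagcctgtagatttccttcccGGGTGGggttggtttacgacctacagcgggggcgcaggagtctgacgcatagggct
Blvrb, chr7:27447728-27447977, plus strand: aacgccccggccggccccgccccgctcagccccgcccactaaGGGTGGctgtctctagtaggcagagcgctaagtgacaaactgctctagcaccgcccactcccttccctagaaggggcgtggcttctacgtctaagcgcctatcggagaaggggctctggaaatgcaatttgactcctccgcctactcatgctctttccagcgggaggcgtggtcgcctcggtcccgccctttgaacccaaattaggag
Tfrc, chr16:32608646-32608895, plus strand: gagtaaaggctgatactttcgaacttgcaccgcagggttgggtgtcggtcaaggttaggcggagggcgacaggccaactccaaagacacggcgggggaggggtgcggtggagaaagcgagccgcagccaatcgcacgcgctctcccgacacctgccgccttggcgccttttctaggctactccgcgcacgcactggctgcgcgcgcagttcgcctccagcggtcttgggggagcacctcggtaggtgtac
Alad, chr4:62519919-62520159, minus strand: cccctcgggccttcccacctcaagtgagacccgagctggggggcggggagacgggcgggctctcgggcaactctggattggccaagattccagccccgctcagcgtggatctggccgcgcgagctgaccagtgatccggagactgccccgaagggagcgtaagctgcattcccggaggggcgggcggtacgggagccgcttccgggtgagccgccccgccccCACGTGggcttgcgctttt
Urod, chr4:116994414-116994663, minus strand: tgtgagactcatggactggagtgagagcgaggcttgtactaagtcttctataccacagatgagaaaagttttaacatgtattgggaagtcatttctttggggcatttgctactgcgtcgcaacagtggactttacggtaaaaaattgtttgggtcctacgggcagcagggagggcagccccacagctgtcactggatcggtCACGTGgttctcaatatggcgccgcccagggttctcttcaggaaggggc
The capitals in Cpox are a GATA match read on the other strand, 86 to 81 bases before the start. Those in Alas1 and Blvrb are CACCC boxes on the other strand, and those in Alad and Urod are E-boxes, 28 to 23 and 49 to 44 bases before the start. The Tfrc window printed had no match.

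A CACCC box lay in 30.8% of the 13 windows, near the 28.1% of all 32851 windows in the RefSeq table. It was found in a window of Alas1, Tfrc and Blvrb, 3 of the 4 genes that were lower. None of the 4 matched genes that did not pass had it. Alas1, Tfrc and Blvrb had 2 windows each, as did Alad and Uros, and Cpox, Urod and Ppox had 1. A share per gene was not computed over all genes. An E-box was found in Alad, Uros and Urod, the 3 cytosolic enzymes before Cpox in the pathway, none of which passed the test. It lay in 30.8% of the 13 windows, some of them overlapping windows of 1 gene, against 6.02% of all windows. The letters CACGTG hold a CG pair, and the windows with an E-box had 9 to 25 such pairs, against a median of 6 over all windows. The background was not matched for CG pairs. GATA letters were in windows of Cpox and Uros, 15.4% of the 13 against 16.6% of all, and no window held the AP-1 and NF-E2 letters, against 4.46% of all. These are matches of letters, and binding was not measured.

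The sequence of heme synthesis begins with Alas1 (ENSMUSG00000032786, chromosome 9, 106233455 to 106248126, minus strand), the 5-aminolevulinate synthase found in all tissues and the rate-limiting step outside the erythroid lineage. Its levels were 123, 119 and 138 CPM in the Ctrl mice AI03, AI54 and AI56, and 99.0, 84.5 and 95.8 CPM in the cKO mice AI02, AI55 and AH74. All 3 cKO libraries lay below the lowest Ctrl library. Group levels were 127 ± 10.2 CPM in Ctrl and 93.1 ± 7.63 CPM in cKO (SD, n = 3 each), 26.5% lower (log2 fold change -0.44, SE 0.079, adjusted p = 0.00287, edgeR quasi-likelihood test). Within the library series, Alas1 differed by -0.43 and -0.42 on the log2 scale, and its adjusted p was under 0.05 in 12 of 12 alternative settings. The erythroid synthase gene Alas2, chosen after its values were seen and not among the 9 genes, had 0 to 4 counts in Ctrl and 1 to 3 in cKO and was not tested.

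Alad, Uros and Urod carry the pathway through the cytosol, and no difference in any of these was detected. Alad (ENSMUSG00000028393, chromosome 4, 62509169 to 62519918, minus strand), which condenses 5-aminolevulinate to porphobilinogen, was at 28.0 ± 2.71 CPM in Ctrl and 24.8 ± 2.29 CPM in cKO (SD, n = 3 each). Its log2 fold change had a 95% interval of -0.41 to 0.071 (adjusted p = 0.406, edgeR). Urod (ENSMUSG00000028684, chromosome 4, 116989965 to 116994413, minus strand), which removes carboxyl groups from uroporphyrinogen, was at 43.1 ± 5.73 CPM in Ctrl and 40.4 ± 1.21 CPM in cKO, with an interval of -0.31 to 0.12 (adjusted p = 0.627, edgeR). Within the library series Urod differed by 0.086 and -0.14, in opposite directions. The library values of Alad and of Urod overlapped between the groups.

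Uros (ENSMUSG00000030979, chromosome 7, 133686243 to 133710072, minus strand), the uroporphyrinogen III synthase that closes the ring, was the only gene of the 9 with a fitted log2 fold change above 0. Its levels were 6.96, 8.39 and 7.42 CPM in Ctrl and 10.4, 8.39 and 8.84 CPM in cKO, from 91 to 176 counts per library. The lowest cKO library fell just inside the Ctrl range. The log2 fold change was 0.27 with a 95% interval of -0.097 to 0.64 (adjusted p = 0.383, edgeR), an interval that holds small falls as well as rises larger than the fall of Alas1.

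Cpox (ENSMUSG00000022742, chromosome 16, 58670208 to 58680391, plus strand) encodes coproporphyrinogen oxidase, the enzyme of the space between the mitochondrial membranes with which the pathway returns to the organelle. It had 65.4, 58.4 and 70.8 CPM in the Ctrl mice AI03, AI54 and AI56, against 34.0, 35.1 and 32.4 CPM in the cKO mice AI02, AI55 and AH74. The gap between the lowest Ctrl and the highest cKO library was larger than the whole range of either group. From 64.9 ± 6.21 CPM in Ctrl to 33.8 ± 1.37 CPM in cKO (SD, n = 3 each), the level was 1.92-fold lower (log2 fold change -0.94, SE 0.091, 95% interval -1.13 to -0.74, adjusted p = 1.57e-05, edgeR quasi-likelihood test). By p-value Cpox ranked 30 among the 15184 genes tested. Within the series Cpox differed by -0.92 and -0.99 on the log2 scale, and it passed in 12 of 12 alternative settings.

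Ppox and Fech follow Cpox, and neither passed the test. Ppox (ENSMUSG00000062729, chromosome 1, 171275990 to 171281186, minus strand), the protoporphyrinogen oxidase of the inner membrane, was at 14.8 ± 0.83 CPM in Ctrl and 14.0 ± 1.25 CPM in cKO (SD, n = 3 each). Its log2 fold change was -0.083, with a 95% interval of -0.37 to 0.20 (adjusted p = 0.767, edgeR). Of its exon bases 791 overlap those of B4galt3 on the other strand, and 114 bases of Alas1 overlap 4930500F10Rik in the same way, with reads counted by strand.

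Fech (ENSMUSG00000024588, chromosome 18, 64456550 to 64489066, minus strand), the ferrochelatase that inserts iron, was at 32.1, 23.8 and 37.9 CPM in Ctrl and at 28.5, 25.6 and 27.5 CPM in cKO. The Ctrl libraries spread on both sides of all 3 cKO libraries, with the Ctrl mouse AI54 lowest of the 6. AI54 was also the lowest Ctrl library for Alas1, Alad, Cpox and Blvrb, and the highest for Uros and Tfrc. The log2 fold change was -0.20, with a 95% interval of -0.50 to 0.10 (adjusted p = 0.446, edgeR).

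**Figure D2:**
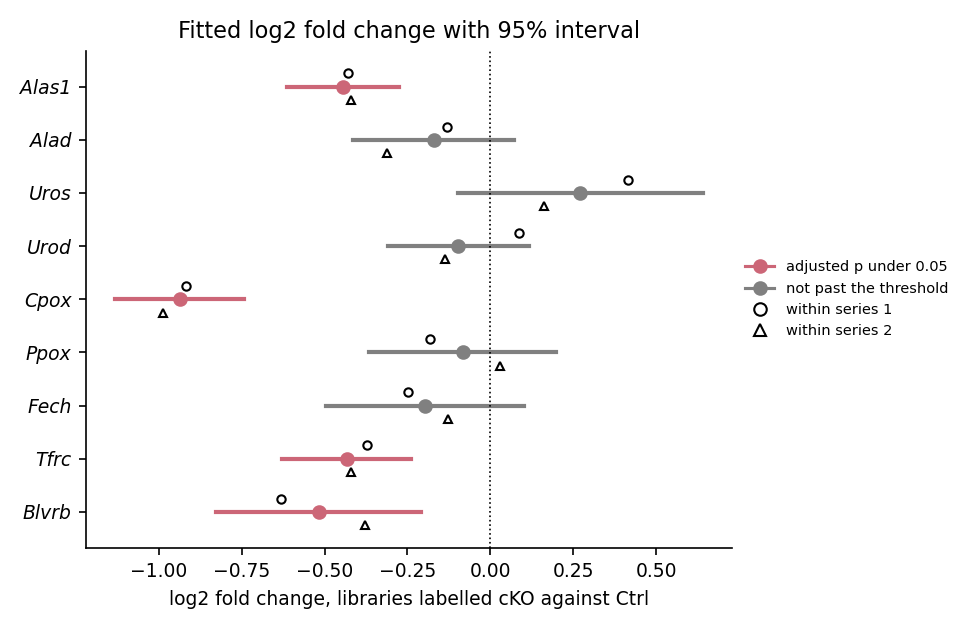
Fitted log2 fold change, cKO against Ctrl, of the 9 genes (horizontal axis), in pathway order and then Tfrc and Blvrb, with lines for the 95% interval and open circles and triangles for the log2 difference within the first and the second library series. Red marks an adjusted p under 0.05. The intervals of Cpox, Alas1, Tfrc and Blvrb lie below 0, and those of the other 5 include 0.

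Levels of different genes were compared per length, as CPM per kilobase of exon (RPKM). In Ctrl the order was Alas1 (29.4 ± 2.38 RPKM), Cpox (20.4 ± 1.95), Tfrc (20.3 ± 2.61), Urod (16.6 ± 2.21), Alad (15.0 ± 1.45), Blvrb (14.7 ± 2.53), Fech (10.8 ± 2.44), Ppox (3.29 ± 0.18) and Uros (2.12 ± 0.20; SD, n = 3 each). The libraries of neighbours in this order did not overlap between Alas1 and Cpox, Fech and Ppox, and Ppox and Uros, and they overlapped for every other pair of neighbours. In cKO Cpox moved from rank 2 to rank 5, at 10.6 ± 0.43 RPKM, and Urod from rank 4 to rank 2, at 15.6 ± 0.47 RPKM. These ranks are not distinct, since in cKO the libraries of Urod overlapped those of Tfrc and the libraries of Cpox those of Blvrb, and Urod itself did not pass the test.

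The share of each enzyme in the enzyme transcripts restates these levels relative to their sum, and is given as a description. The RPKM of the 7 enzymes summed to 97.6 ± 9.13 in Ctrl and to 76.1 ± 2.32 in cKO (SD, n = 3 each). Without Cpox the sums were 77.2 ± 7.28 and 65.5 ± 2.45. Cpox made up 21.5%, 20.4% and 20.7% of the sum in the Ctrl mice AI03, AI54 and AI56, and 13.6%, 14.9% and 13.5% in the cKO mice AI02, AI55 and AH74. The share of Alas1 was also lower in every cKO library (30.2% ± 0.45 in Ctrl, 28.4% ± 1.66 in cKO), and those of Urod (17.1% ± 1.71 and 20.5% ± 1.08) and Uros (2.20% ± 0.37 and 3.38% ± 0.28) were higher in every cKO library. For each of these 4 shares the two-sided exact permutation test gave p = 0.1, the smallest that 3 against 3 allow. The same exact test gave p = 0.2 for each of the shares of Alad, Ppox and Fech, whose libraries overlapped. Shares of 1 sum depend on each other, so that a lower share of Cpox raises the rest.

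**Figure D3:**
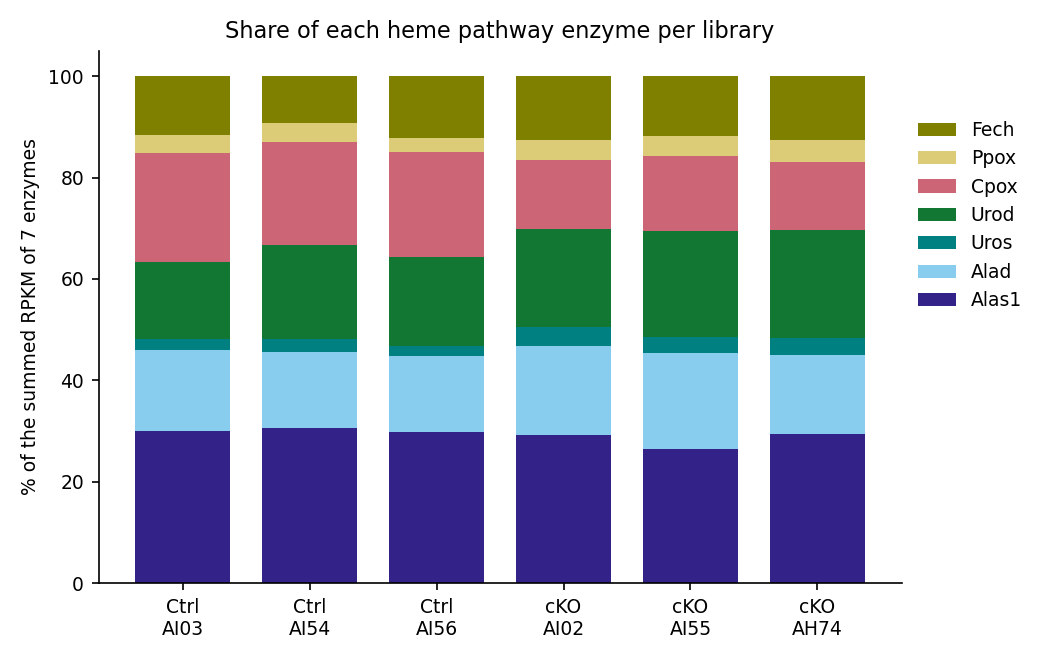
Share of each of the 7 enzymes in their summed RPKM (percent, linear axis from 0), in pathway order from the bottom, as 1 stacked bar for each of the 6 libraries. The Cpox segment goes from a mean of 20.9% ± 0.59 of the sum in Ctrl to 14.0% ± 0.79 in cKO.

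Tfrc (ENSMUSG00000022797, chromosome 16, 32608920 to 32632794, plus strand), the receptor that carries transferrin-bound iron into endosomes, had 118, 144 and 114 CPM in Ctrl and 83.6, 99.7 and 95.7 CPM in cKO. Every cKO library was below the lowest Ctrl library. The groups were at 125 ± 16.1 and 93.0 ± 8.43 CPM (SD, n = 3 each), 25.9% lower in cKO (log2 fold change -0.43, SE 0.091, adjusted p = 0.00851, edgeR quasi-likelihood test). Within the library series the differences were -0.37 and -0.42. The test was just missed without the cKO mouse AI02 (log2 fold change -0.36, adjusted p = 0.0509, edgeR).

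Steap3, the endosomal reductase that acts on the iron released from transferrin, had a larger difference than the receptor. It was at 38.1, 33.3 and 43.6 CPM in Ctrl and at 18.6, 21.5 and 19.3 CPM in cKO (log2 fold change -0.95, SE 0.12, adjusted p = 0.000143, edgeR). Its groups did not overlap, and the differences within the series were -0.93 and -0.98. Slc11a2, the transporter that passes this iron to the cytosol, was at 21.3 ± 2.98 CPM in Ctrl and 15.4 ± 1.94 CPM in cKO (log2 fold change -0.47, adjusted p = 0.0490, edgeR). It passed in only 5 of 12 alternative settings, and its log2 difference was -0.18 in one library series and -0.77 in the other. Slc40a1, the iron exporter ferroportin, was at 5.88 ± 0.37 CPM in Ctrl and 1.39 ± 0.51 CPM in cKO (log2 fold change -2.07, adjusted p = 0.000516, edgeR). Of the 16 genes of iron uptake, storage and control these 3 were lower, and none was higher with edgeR or DESeq2 or at an unadjusted p under 0.05. They make up 18.8% of the list, against 3.79% lower among all genes tested, and DESeq2 also called Pcbp1 lower. The log2 fold changes of the 16 had their median at -0.083. The ferritin chains Fth1 (log2 fold change -0.10, adjusted p = 0.408, edgeR) and Ftl1 (-0.33, adjusted p = 0.133) did not pass.

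Blvrb (ENSMUSG00000040466, chromosome 7, 27447978 to 27466144, plus strand), a NADPH-dependent reductase of biliverdin and flavins that is abundant in red cells, had 21.7, 16.8 and 23.8 CPM in Ctrl and 12.9, 15.1 and 15.4 CPM in cKO. The groups did not overlap, but the Ctrl mouse AI54 lay close to the highest cKO library. The levels were 20.8 ± 3.57 and 14.4 ± 1.38 CPM (SD, n = 3 each), 30.1% lower in cKO (log2 fold change -0.52, SE 0.14, adjusted p = 0.0419, edgeR quasi-likelihood test). This was the least stable of the 4 calls. It passed in 6 of 12 alternative settings and failed with the library series as a covariate (adjusted p = 0.0609) and without any 1 mouse other than AI54 (adjusted p = 0.0715 to 0.174, edgeR).

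Hmox1, which encodes a heme oxygenase, had 4.74, 3.77 and 5.82 CPM in Ctrl and 0.54, 1.84 and 1.12 CPM in cKO (62 to 91 against 8 to 29 counts). Its groups were well apart, with a log2 fold change of -2.01 (SE 0.37, adjusted p = 0.00379, edgeR). Blvra, which encodes the other biliverdin reductase, was at 17.2 ± 0.86 CPM in Ctrl and 19.2 ± 0.71 CPM in cKO, and all 3 cKO libraries were above all 3 Ctrl libraries. It did not pass the test (log2 fold change 0.16, 95% interval -0.085 to 0.41, adjusted p = 0.449, edgeR). Hmox1 was the only gene that passed of 10 genes of heme breakdown and heme-responsive control, whose median log2 fold change was -0.067. That share, 10%, stands beside 7.67% of all genes that passed in either direction and 3.79% that were lower. None of the 10 was higher with edgeR or DESeq2 or at an unadjusted p under 0.05.

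The mitochondrial partners of heme synthesis moved in part. Of 27 genes tested for heme transport, mitochondrial iron and iron-sulfur clusters, 4 were lower, and none was higher with edgeR or DESeq2 or at an unadjusted p under 0.05. Their median log2 fold change was -0.12, and 14.8% were lower against the 3.79% of all genes. Glrx5, a glutaredoxin of iron-sulfur cluster assembly, was at 39.0 ± 2.16 CPM in Ctrl and 26.1 ± 1.56 CPM in cKO (log2 fold change -0.58, adjusted p = 0.00171, edgeR). The mitochondrial chaperone Hspa9 was at 624 ± 18.2 and 512 ± 15.5 CPM (log2 fold change -0.28, adjusted p = 0.00799), and both passed in 12 of 12 alternative settings. Fdxr, the reductase that supplies electrons through ferredoxin, was at 24.9 ± 3.42 and 17.3 ± 1.13 CPM (log2 fold change -0.53, adjusted p = 0.0172) and passed in 9 of 12. Slc25a39, a carrier of the inner membrane, was at 81.4 ± 6.86 and 66.8 ± 4.57 CPM (log2 fold change -0.28, adjusted p = 0.0466) and passed in 7 of 12. The iron importer Slc25a37 showed no detectable difference (log2 fold change -0.081, 95% interval -0.28 to 0.12, adjusted p = 0.673, edgeR).

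**Figure D4:**
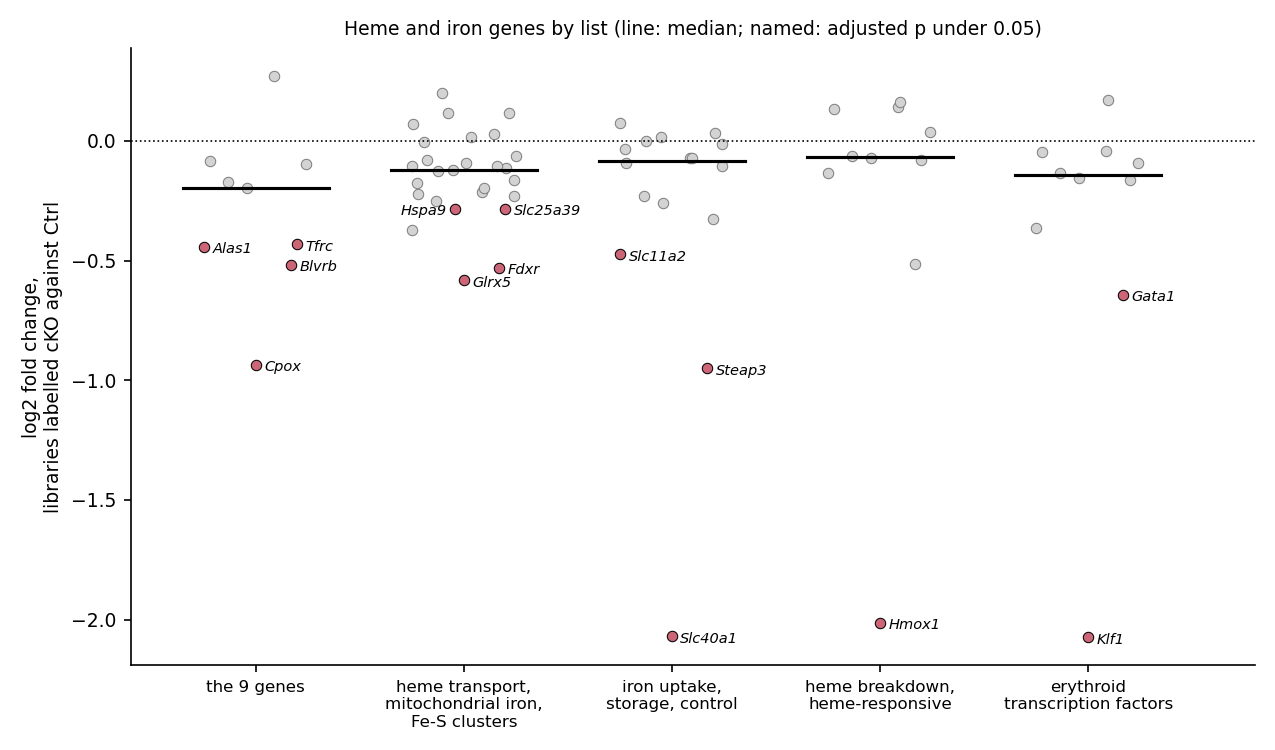
Fitted log2 fold change, cKO against Ctrl (vertical axis), of the 9 genes and of the tested genes in 4 companion lists, 1 point per gene, with named red points for an adjusted p under 0.05, grey points for the rest and a line for the median of each list. Medians lie between -0.20 for the 9 genes and -0.067 for heme breakdown and heme-responsive control, and every red point is below 0.

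Genes of the erythroid lineage were read beside the 9 genes. Of 10 erythroid transcription factors, Klf1 (35.9 ± 10.9 CPM in Ctrl and 8.47 ± 1.98 CPM in cKO, log2 fold change -2.07, adjusted p = 2.1e-05, edgeR) and Gata1 (38.1 ± 5.92 and 24.4 ± 1.98 CPM, log2 fold change -0.64, adjusted p = 0.00352) were lower. These make up 20% of the list, against 3.79% lower among all genes tested. None of the 10 was higher with edgeR or DESeq2 or at an unadjusted p under 0.05, and their median log2 fold change was -0.14. Of 16 erythroid markers 10 were tested, and 8 of these were lower, against 3.79% of all genes, with a median of -1.32. Epor (log2 fold change -0.70, adjusted p = 0.170, edgeR) and Hemgn (0.21, adjusted p = 0.267) did not pass, and Ahsp was not matched to a counted gene. The summed level of the list ranged from 381 to 453 CPM in Ctrl and from 245 to 284 CPM in cKO. Car2 was the largest part of this sum, at 229 ± 18.7 CPM in Ctrl and 187 ± 15 CPM in cKO. Car1 was at 58.1 ± 14.0 CPM in Ctrl and 1.08 ± 0.34 CPM in cKO. Among the defining markers of later erythroid cells, Slc4a1 and Hba-a2 had 3 counts or fewer in every library, and Hba-a1 had 1 to 11. In sorted cells measured in bulk, fewer cells of a type and less RNA per cell cannot be told apart, and the part of erythroid-primed cells in the falls of Cpox, Alas1, Tfrc and Blvrb was not tested.

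Markers of other cell types were read in the same way, beside 3.79% lower and 7.67% changed in either direction among all genes tested. For macrophages, which express Hmox1 and Slc40a1, 10 of 12 markers were tested, of which Vcam1, Cd163 and Cd5l were lower and Axl was higher. The median log2 fold change of the 10 was -0.58. Adgre1 was also fitted above 0 but did not pass (log2 fold change 0.98, adjusted p = 0.268, edgeR). The summed level of the list overlapped, at 25.2 to 30.6 CPM in Ctrl and 24.5 to 28.5 CPM in cKO. Axl, the only marker of the list that was higher, was at 9.01 ± 1.75 CPM in Ctrl and 16.4 ± 2.74 CPM in cKO. Without Axl the sum was 17.1 to 19.9 CPM in Ctrl and 8.98 to 11.3 CPM in cKO. Axl was left out after its values were seen, so the gap between these sums depends on that choice and tests nothing. For neutrophils and their precursors, 6 of 10 markers were tested, of which 6 were lower with edgeR and 5 with DESeq2, with sums of 2791 to 3386 and 450 to 734 CPM, while Camp and Ly6g had 3 counts or fewer in every library. For megakaryocytes, 6 of 8 were tested, with Pf4 lower, Itgb3 higher and sums of 162 to 197 and 171 to 241 CPM. The part of these cells in the differences of the 9 genes was not tested.

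The genes most like each of the 9 were found by Pearson's r of log2 CPM over the 6 libraries, among 9514 genes with a mean of at least 10 CPM. With 6 libraries in 2 groups these values are high for many genes, and they are given as a description. Cpox was closest to Svip (r = 0.997), Mthfd1 (0.997) and Mphosph10 (0.995), and 525 genes had r over 0.9 with it. Alas1 was closest to Itgal (0.996), Zscan22 (0.995) and Calr (0.995). Tfrc was closest to Myl10 (0.995), Mat2a (0.993) and H2-DMa (0.991), and Blvrb to Fam3c (0.994), Epn1 (0.991) and Gpatch4 (0.991). Among the genes that did not pass, Alad was closest to Ptch1 (0.999), Lsm6 (0.984) and Fcer1g (0.976), and Urod to Slc25a17 (0.997), Gm6159 (0.986) and Snrpa (0.978). Uros was closest to Pla2g4a (0.996), Nlrc3 (0.982) and Blvra (0.973). Ppox was closest to Atp6v0b (0.980), Tbcb (0.974) and Ptpmt1 (0.965), and only 19 genes had r over 0.9 with it. Fech was closest to Dbr1 (0.988), Ccdc66 (0.983) and Ncaph2 (0.979). The 9 genes themselves were left out of this search.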

How the data were processed

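RNA of sorted LSK cells was amplified with a stranded total RNA kit by the authors and sequenced with 1 library per mouse. Per the labels and the study's methods, the authors aligned reads to mm10 (GRCm38) with GSNAP, and reads with a single alignment were counted by strand in Ensembl gene models with featureCounts 1.5.0. The deposited values are raw counts per gene, with a summed exon length as the other deposited column, and with no normalization. Low input and amplification can add spread between libraries. In the fit and its intervals this spread is taken in along with that between mice. With 1 library per mouse these sources cannot be told apart.

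From the counts, edgeR 4.0.16 in R 4.3.3 was used with TMM normalization, filterByExpr (15184 genes kept) and its quasi-likelihood test, fitting genotype alone to the 6 libraries together. P-values were adjusted by Benjamini and Hochberg over all genes tested, with a threshold of 0.05. The SE of a log2 fold change was its size divided by the square root of F. CPM used TMM factors, RPKM divided them by the deposited exon length, and log2 CPM used a prior count of 2. Genes were called higher or lower only past this threshold. Symbols came from GENCODE M21 by gene identifier (98.8% of genes). Its gene ends equalled those of the count table for 6 of the 9 genes and differed for Alas1, Cpox and Fech. The steps were tested on simulated data. Within-series differences are of mean log2 CPM.

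The members, the companion and marker lists, the motifs and the tests were chosen with earlier results of these data known. Named were all 9 members, the genes of each companion list that passed (at most 8), Hmox1, Blvra, Steap3, Slc25a37, Fth1, Ftl1, Gata1 and Klf1 whatever their values, and the 3 genes with the highest r for each member. The alternatives were DESeq2 1.42.0 and its size factors, no filter, a minimum of 10 counts per library, leaving out ribosomal and mitochondrial RNA and features above 1% of a library, the library series as a covariate, a threshold of 0.01, and leaving out each mouse. The study describes Ctrl and cKO mice as littermates, but neither it nor the labels say which mice shared a litter, and each mouse is 1 biological replicate. Some items are not reported here.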

Additional observations from a re-analysis of the deposited data

How the results depend on the processing

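Of the 9 genes, 4 passed with edgeR and also with DESeq2, with DESeq2's size factors, without a filter, with at least 10 counts in every library and without 394 ribosomal, mitochondrial or very abundant features. When library series was added to the model, or at a threshold of 0.01, 3 passed, with Blvrb lost. Leaving out 1 mouse at a time, 2 to 4 passed. Without the cKO mouse AI02, Tfrc (adjusted p = 0.0509) and Blvrb (adjusted p = 0.143, edgeR) were lost, while without AI54 all 4 passed. The median log2 fold change of the 9 genes ranged from -0.32 (without the Ctrl mouse AI54) to -0.13 (without the Ctrl mouse AI56) over these fits, and from -0.22 to -0.19 over the other settings. Cpox (log2 fold change -1.01 to -0.87) and Alas1 (-0.49 to -0.38) passed in 12 of 12 alternatives, and Tfrc in 11. Alad, Uros, Urod, Ppox and Fech passed in none, and no fitted direction of the 9 genes was reversed. Of the 63 companion genes tested, 10 passed, against 7 to 12 over the settings, where Pcbp1 passed in 6 of 12. Among all 15184 genes tested in the main fit, 7.67% passed, and the number that passed also varied with the setting. The causes of these changes were not tested. With 91 to 176 counts per library, Uros was the least deeply counted of the 9. No paired analysis was possible because the labels give no shared replicate numbers and no source used here ties mice to litters. Library series, used as a covariate, is not a litter.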
